A study of Mus musculus with 6 samples.

Results

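The genes described here are 9 of the 18537 genes with reads in sorted mammary luminal progenitors, and they were chosen by symbol as genes of the myoepithelial (basal) cell layer: *Acta2*, *Actg2*, *Myh11*, *Cnn1*, *Tagln*, *Mylk*, *Oxtr*, *Trp63* and *Snai2*. Each had a single entry in the values. Poly(A)+ RNA was sequenced from luminal progenitors (Lin-CD24loCD29+CD61+) of adult nulliparous mice, with 3 libraries from *Robo1+/+* females (gh03, gh09 and gh15) and 3 from their *Robo1-/-* littermates (gh06, gh12 and gh18), bred from *Robo1+/-* parents. The *Robo1-/-* mice carried the Robo1tm1Matl allele in the germline, so the basal cells around the progenitors carried it as well. Each library pooled cells of 2 animals, and no treatment is listed for either genotype.

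The mammary epithelium has an inner luminal layer, which holds the luminal progenitors, and an outer layer of myoepithelial cells. Myoepithelial cells resemble smooth muscle: they carry contractile actin and myosin, and oxytocin binding to its receptor makes them contract and eject milk. Their basal identity depends on transcription factors such as p63. Because the sort was designed to keep luminal progenitors, the levels below are those of basal-layer transcripts in a luminal fraction. In a bulk sample, fewer basal cells and less RNA per basal cell cannot be told apart, and a transcript made at a low level by the progenitors themselves cannot be separated from either.

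The progenitor label was set against its markers. All 15 luminal progenitor markers found among the 16 listed were tested, and their summed normalized read count was 167656 to 208265 for the *Robo1+/+* libraries and 94991 to 228107 for the *Robo1-/-* ones, the lowest being gh18 without GC correction. The sum was led by the luminal keratins *Krt8*, *Krt18* and *Krt19*, so it does not separate progenitors from mature luminal cells. Of the other listed markers, *Elf5* gave 2366 to 3901, *Kit* 4209 to 5644, *Aldh1a3* 1972 to 6865 and *Cd14* 1605 to 4353. All 10 markers listed for mature, hormone-sensing luminal cells were also present, led by *Prlr*, *Areg* and *Ly6a*, with sums of 47292 to 74207. Of the genes of the sort gate, *Cd24a* gave 10675, 14373 and 14034 in the *Robo1+/+* libraries, against 21142, 20715 and 19935 in the *Robo1-/-* ones. Its log2 fold change was 0.67 (SE 0.21, adjusted p = 0.86, limma), and 0.40 with GC correction. Values of the genotypes were free of overlap for 9.41% of all tested genes. *Itgb1* (CD29) gave 6673 to 11580, and *Itgb3* (CD61) 387 to 1317. *Robo1* itself gave 289, 574 and 541 against 130, 214 and 177, so that reads of the locus remained at 37.1% of the *Robo1+/+* mean, with no overlap between the genotypes (log2 fold change -1.39, SE 0.36, adjusted p = 0.86, limma). Depth was 9727191 to 17433868 reads per library. Library gh18 stood apart when each library was taken as its deviation from the mean of the others. Its deviation fell with the GC content of the transcript (Spearman's rho -0.81 across 12453 genes). In the other 5 libraries rho was 0.17 to 0.61, against a mean that includes gh18, so these are not trends of each library alone. GC-corrected values are therefore given beside the results in which gh18 carries weight.

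The promoter of *Acta2* is shown because the smooth muscle genes are known targets of serum response factor, which binds the CArG box, CC, then 6 bases that are A or T, then GG. Sequences of the 250 bases before the annotated start were found in RefSeq (GRCm38.p6) for 4 of the 9 genes: *Acta2*, *Cnn1*, *Mylk* and *Oxtr*. Searched in both strands, 1.47% of 32851 mouse promoter windows of this length held a CArG box, and 7.24% held a CArG-like box, in which 1 of the 6 inner bases is G or C. The *Acta2* window (chr19:34255374-34255623, minus strand) held no strict box and 2 CArG-like boxes, in capitals, 84 and 34 bases before the start. The windows of *Cnn1* (chr9:22099003-22099252, plus strand), *Mylk* (chr16:34784700-34784949, plus strand) and *Oxtr* (chr6:112489826-112490075, minus strand) held neither kind, which says only that these letters are not within the window. That of *Cnn1* is given with *Acta2*, since both genes belong to the contractile group that moved together across the libraries.

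Acta2: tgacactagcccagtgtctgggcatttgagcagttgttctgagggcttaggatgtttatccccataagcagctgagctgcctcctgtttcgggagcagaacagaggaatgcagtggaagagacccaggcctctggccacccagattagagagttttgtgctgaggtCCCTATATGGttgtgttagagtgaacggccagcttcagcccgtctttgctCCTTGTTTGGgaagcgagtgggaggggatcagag

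Cnn1: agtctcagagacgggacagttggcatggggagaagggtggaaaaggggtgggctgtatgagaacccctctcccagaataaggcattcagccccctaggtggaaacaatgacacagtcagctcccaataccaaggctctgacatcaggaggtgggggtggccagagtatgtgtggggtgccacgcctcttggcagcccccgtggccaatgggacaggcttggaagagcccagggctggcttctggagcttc

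All 9 genes were detected in every library, most of them at low levels. Per kilobase of transcript, *Tagln* was highest, with a mean of 179 ± 43.3 normalized reads per kilobase (SD, n = 6 libraries), then *Acta2* at 148 ± 79.1, *Oxtr* at 64.8 ± 32.6, *Myh11* at 18.4 ± 10.2, *Actg2* at 8.58 ± 4.17, *Cnn1* at 8.47 ± 4.44, *Mylk* at 6.69 ± 3.47, *Trp63* at 6.15 ± 2.40 and *Snai2* at 2.65 ± 1.12. The steps from *Oxtr* to *Myh11* and from *Myh11* to *Actg2* were present in 6 of 6 libraries. *Tagln* over *Acta2*, *Acta2* over *Oxtr* and *Trp63* over *Snai2* held in 5 of 6. *Actg2*, *Cnn1*, *Mylk* and *Trp63* could not be ordered: *Actg2* exceeded *Cnn1* in 2 libraries, *Cnn1* exceeded *Mylk* in 4 and *Mylk* exceeded *Trp63* in 2.

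The actin isoforms of smooth muscle were the first pair of contractile genes. *Acta2* (chr19:34315580-34329826 in NCBIM37, minus strand), smooth muscle alpha-actin and the usual marker of myoepithelium, gave normalized read counts of 508, 129 and 219 in *Robo1+/+* libraries gh03, gh09 and gh15, and of 335, 247 and 144 in *Robo1-/-* libraries gh06, gh12 and gh18. Both the highest and the lowest library were *Robo1+/+*, and the groups overlapped. *Actg2* (chr6:83462899-83486259, minus strand), smooth muscle gamma-actin, gave 15.3, 3.14 and 10.3 against 19.6, 10.1 and 10.2. These rest on 4 to 17 reads per library, so the gh09 value has a wide counting interval, but the gene was lowest in the same library as *Acta2*.

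The myosin heavy chain and its regulators followed. *Myh11* (chr16:14194620-14291501, minus strand), smooth muscle myosin heavy chain, gave 209, 52.5 and 86.3 in the *Robo1+/+* libraries, against 204, 102 and 77.3 in the *Robo1-/-* ones. Libraries gh03 and gh06, of opposite genotype, were thus level at about the same height and well above the other 4. *Mylk* (chr16:34745296-35002520, plus strand), the kinase that phosphorylates myosin light chain to start contraction, gave 100.51, 18.03 and 47.8 against 58.7, 46.7 and 42.3, and its 3 *Robo1-/-* values all lay within the *Robo1+/+* range. *Cnn1* (chr9:21903725-21914074, plus strand), the actin-binding protein calponin, gave 28.0, 6.27 and 20.6 against 35.7, 13.7 and 16.1, on 8 to 31 reads. Its lowest library was again gh09.

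*Tagln* (chr9:45737711-45744141, minus strand), the actin-binding protein transgelin or SM22 alpha, was flatter. It gave 374, 234 and 308 in the *Robo1+/+* libraries, against 345, 231 and 207 in the *Robo1-/-* ones, a 1.81-fold range, where the other 5 contractile genes ranged over 3.93-fold to 6.23-fold. Of its 1586 exonic bases, 65 overlap exons of *Pcsk7* on the opposite strand. The library kit does not mark strand, so reads of the overlap cannot be assigned to one of the genes, and *Pcsk7* gave 929, 1142 and 1131 against 1022, 1152 and 433.

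The receptor and the transcription factors followed the contractile genes only in part. *Oxtr* and *Snai2* had the *Robo1+/+* order of the contractile genes (gh03, gh15, gh09), though *Snai2* had 3 reads in each of gh15 and gh09. *Trp63* did not have it. Among the *Robo1-/-* libraries none of these genes was highest in gh06, where the contractile genes were highest without GC correction. *Oxtr* (chr6:112423678-112440884, minus strand), the oxytocin receptor, gave 431, 149 and 184 in the *Robo1+/+* libraries, against 310, 190 and 512 in the *Robo1-/-* ones. It was highest in gh18, and after GC correction gh18 was still the highest, at 587 against 140 to 423 in the other 5. *Trp63* (chr16:25683849-25892188, plus strand), which encodes p63, gave 19.1, 22.7 and 48.8 against 24.2, 36.6 and 46.7. It was lowest in gh03, the library with the highest *Acta2*, and highest in gh15. *Snai2* (chr16:14705945-14709488, plus strand), the transcription factor SLUG, gave 7.63, 2.35 and 2.81 against 5.75, 6.41 and 7.30. These stand for 3 to 7 reads per library and 29 in all, and its spread over the libraries was that of counting error (chi-square over its degrees of freedom 1.03).

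**Figure D1:**
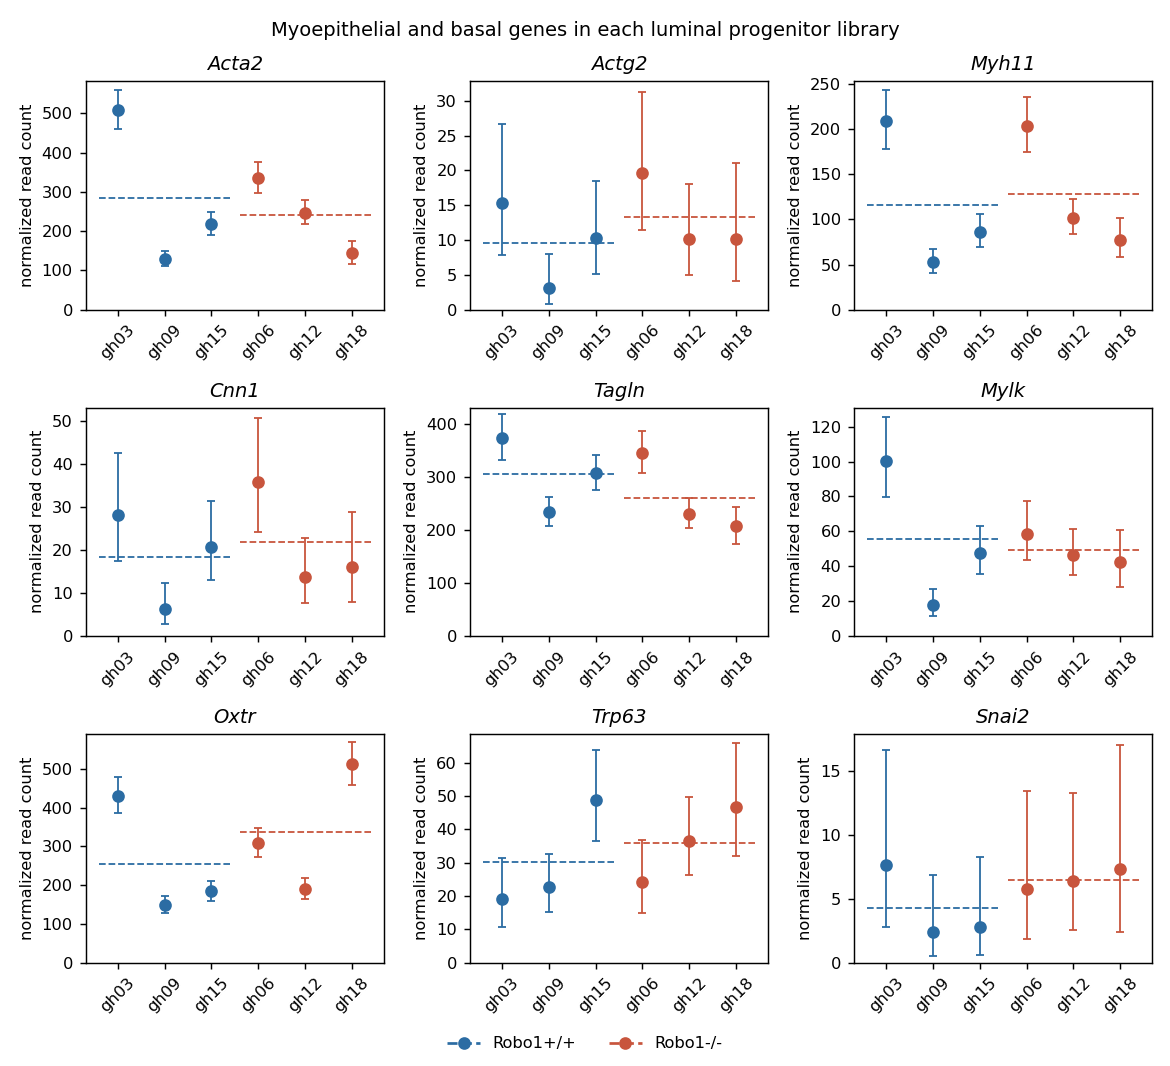
Normalized read count (y axis, linear, from 0) of each gene in the 6 libraries (x axis), blue for Robo1+/+ and red for Robo1-/-, with 95% Poisson intervals that cover counting error only and dashed lines for group means. The 6 contractile genes are highest in gh03 or gh06 and, except for Tagln, lowest in gh09, while Oxtr is highest in gh18 (512) and Trp63 in gh15 (48.8).

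For the other 8 genes the spread exceeded counting error. Chi-square over its degrees of freedom, which is near 1 when libraries differ by counting error only, was 2.95 for *Actg2*, 4.66 for *Trp63*, 5.84 for *Cnn1*, 13.9 for *Mylk*, 14.6 for *Tagln*, 36.1 for *Myh11*, 67.9 for *Acta2* and 71.2 for *Oxtr*. With gh18 left out, the SD of log2(value + 1) over the remaining 5 libraries was 0.73 to 0.92 for the contractile genes other than *Tagln*, and 92.5% to 95.9% of the 13692 tested genes had a smaller one. The SD was 0.32 for *Tagln*, 0.63 for *Oxtr* and 0.54 for *Trp63*, beside a median of 0.26 for all tested genes. Genes of low count vary more, and the median tested gene had a mean value of 359, above every one of the 9.

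The contractile genes rose and fell together from library to library. Among *Robo1+/+* libraries, the order gh03, gh15, gh09 was the same for 6 of 6 contractile genes. *Oxtr*, *Snai2* and the basal keratins *Krt5*, *Krt14* and *Krt17* had this order as well, so it was not particular to the contractile genes. Among *Robo1-/-* libraries, gh06 was the highest for 6 of 6 contractile genes. It was followed by gh12 and then gh18 for *Acta2*, *Myh11*, *Tagln* and *Mylk*, and by gh18 and then gh12 for *Actg2* and *Cnn1*. With GC correction the *Robo1+/+* order was the same for 6 of 6, and gh06 was the highest for 5 of 6, the exception being *Mylk*, at 53.9 in gh06 and 61.8 in gh18. The order of gh12 and gh18 did not hold: with GC correction gh12 was the lowest *Robo1-/-* library for 5 of 6 genes and gh18 for *Acta2* alone. The mean of the 6 genes' centred log2 values, called the contractile profile here, was 0.79 in gh03, 0.65 in gh06, 0.00 in gh15, -0.10 in gh12, -0.31 in gh18 and -1.04 in gh09. With GC correction gh18 was at -0.0054 and gh12 at -0.17, and the ends were again gh03 at 0.77 and gh09 at -1.14. The extremes of both signs were thus *Robo1+/+* libraries.

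Pearson's r of log2(value + 1) over the 6 libraries had a median of 0.88 among the 15 pairs of contractile genes, with a range of 0.62 to 0.97, and was at least 0.8 in 10 of them. Spearman's rho had a median of 0.77 and ran from 0.71 to 1. Among all 93728586 pairs of tested genes the median r was 0.0009, and 12.6% reached 0.8. With GC correction the median of the 15 pairs was 0.84, and 6.04% of all pairs reached 0.8. Without both gh03 and gh09, the libraries at the ends of the profile, the median of the 15 pairs was 0.88 and the lowest 0.67. High r is more frequent with fewer libraries, and the share of all pairs at 0.8 was not computed for this setting. With the values centred within each genotype, a step added after seeing the data, the median was 0.91 with a range of 0.79 to 0.99 (15.3% of all pairs reached 0.8), and 0.91 with GC correction as well (0.73 to 0.98, with 9.33% of all pairs at 0.8). The 6 libraries are few. The points also share 1 size factor per library and the library's base composition.

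Of single pairs, *Actg2* and *Cnn1* had the highest r, 0.97 (exact permutation p = 0.0014, adjusted over 36 pairs 0.050), with rho 1 (exact permutation p = 0.0028, adjusted 0.050), and 0.87 without the 2 libraries farthest from the median of *Actg2*. *Acta2* and *Myh11* followed the same rank order in all 6 libraries (r = 0.94, exact permutation p = 0.0097, adjusted 0.088; rho 1, exact permutation p = 0.0028, adjusted 0.050), and r was 0.88 without the 2 farthest. For *Myh11* and *Mylk* r was 0.89 (exact permutation p = 0.0028, adjusted 0.050) and rho 0.94 (exact permutation p = 0.017, adjusted 0.15), with r = 0.94 without the 2 farthest. None of the 36 pairs had an adjusted p under 0.05. With 720 pairings of the libraries, exact permutation p cannot go below 0.0014 for r or 0.0028 for rho. A single pair at either limit cannot go under 0.05 when adjusted over 36, so this threshold says little about single pairs. *Tagln* was the loosest of the group, with r of 0.62 to 0.85 to the other 5, and its r to *Myh11* went from 0.81 to 0.18 without the 2 farthest libraries, gh03 and gh06.

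The r of each gene to the profile of the other contractile genes was 0.96 for *Myh11*, 0.93 for *Cnn1*, 0.93 for *Mylk*, 0.91 for *Actg2*, 0.90 for *Acta2* and 0.78 for *Tagln*. It was 0.54 for *Oxtr*, 0.62 for *Snai2* and -0.28 for *Trp63*, so *Oxtr* and *Trp63* lay outside the range of the contractile genes. The spread of *Snai2*, on 3 to 7 reads per library, was that of counting error, so its r cannot place it in or outside the group. The median r of *Oxtr* to the 6 was 0.55, and 0.64 with GC correction. Without gh03 and gh09, and without GC correction, it was -0.12, and that of *Snai2* went from 0.59 to -0.17. That of *Trp63* was -0.30 with all libraries, -0.19 with GC correction and -0.86 without those 2. *Oxtr* and *Snai2* had r = 0.81 (exact permutation p = 0.058, adjusted 0.175) and rho = 0.89 (exact permutation p = 0.033, adjusted 0.17), and r = 0.68 without the 2 farthest.

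**Figure D2:**
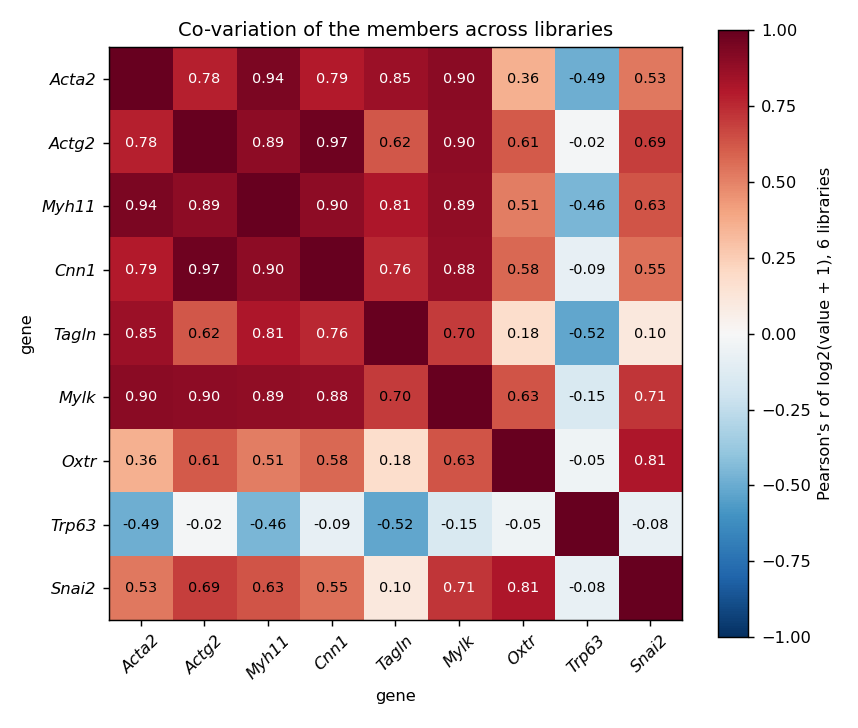
Pearson's r of log2(value + 1) over the 6 libraries for each pair of the 9 genes (both axes list the genes), in red for positive and blue for negative r, with the value in each cell. The upper left block of contractile genes holds r of 0.62 to 0.97, and the row of Trp63 holds r of -0.52 to -0.02.

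The comparison of genotypes asked whether loss of *Robo1* in the whole animal changed these basal transcripts in the sorted fraction. None of the 8 tested genes was called at an adjusted p under 0.05 (limma), where the background was 0 of 13692 tested genes (0%). None had an unadjusted p under 0.05, where 231 tested genes did (1.69%, 105 higher and 126 lower in *Robo1-/-*; 114 and 85 with GC correction, 70 and 170 with scaling by total reads), and edgeR's quasi-likelihood test gave 221 of 13692 and DESeq2 335 of 18531 across all genes, with 0 of these genes in either. In none of the 9 were the genotypes free of overlap, which they were for 1288 tested genes (9.41%). With 3 libraries against 3, an exact permutation test cannot go below p = 0.1. The p-values measure the spread between these pools of animals.

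*Actg2* had the largest estimated difference of the 8, 9.58 ± 6.10 in *Robo1+/+* and 13.3 ± 5.44 in *Robo1-/-* (SD, n = 3), with a log2 fold change of 0.58 and a 95% interval of -0.90 to 2.06 (adjusted p = 0.86, limma; exact permutation p = 0.6). *Oxtr* gave 255 ± 154 and 337 ± 163, a log2 fold change of 0.45 with an interval of -0.78 to 1.68 (adjusted p = 0.86, limma). The estimate was 0.09 without gh18 and 0.53 after GC correction. *Tagln*, the least variable of the group, gave 305 ± 69.9 and 261 ± 73.8, a log2 fold change of -0.23 with the narrowest interval of the 8, -0.98 to 0.51, and of -0.07 after GC correction. All of these intervals include 0 and extend well to either side of it, so they do not show that the genotypes were equal.

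The other contractile genes gave estimates of either sign. *Acta2* gave 285 ± 198 and 242 ± 95.3, with a log2 fold change of -0.09 (-1.40 to 1.23), which was 0.44 without gh03, 0.24 without gh18 and -0.54 without gh09. *Myh11* gave 116 ± 82.2 and 128 ± 67.0, with 0.25 (-1.16 to 1.66), which was -0.20 without gh09 and -0.15 without gh06. *Cnn1* gave 18.3 ± 11.0 and 21.8 ± 12.1, with 0.34 (-1.21 to 1.88), which was -0.26 without gh09 and -0.07 without gh06. *Mylk* gave 55.5 ± 41.8 and 49.2 ± 8.48, so the mean was lower in *Robo1-/-* while the log2 fold change was 0.13 (-1.33 to 1.59), and it was -0.50 without gh09, 0.71 without gh03 and 0.36 after GC correction. The sign of each of these 4 estimates changed with the library left out.

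Of the basal transcription factors, *Trp63* gave 30.2 ± 16.2 and 35.8 ± 11.3, with a log2 fold change of 0.31 (-0.84 to 1.46), which was 0.07 after GC correction and 0.71 without gh15. *Snai2* fell short of the count filter and was not among the 8. In the fit of all genes with at least 1 read its log2 fold change was 0.64 with an SE of 0.51 (adjusted p = 0.88, limma). Over the 8 genes the median log2 fold change was 0.28, beside 0.00 for all tested genes, and it went from -0.23 without gh09 to 0.72 without gh03.

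**Figure D3:**
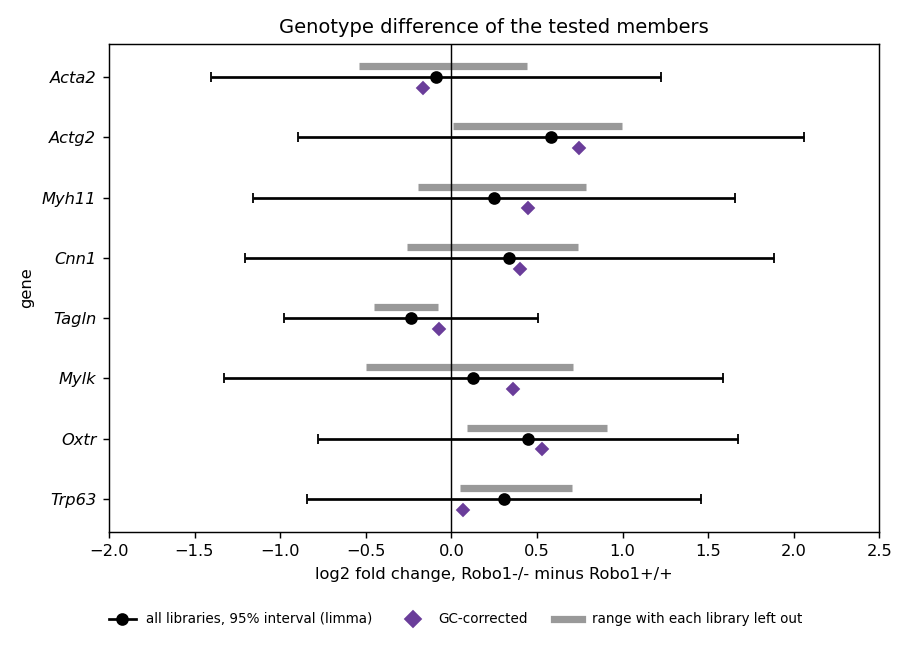
Log2 fold change, Robo1-/- minus Robo1+/+ (x axis), of the 8 tested genes (y axis) from limma, with 95% intervals (black), the GC-corrected estimate (purple diamonds) and the range over leaving out each library in turn (grey bars). Every 95% interval includes 0, and the grey bars of Acta2, Myh11, Cnn1 and Mylk lie on both sides of it.

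Other genes of the contractile machinery were counted from 2 lists. Of all 13692 tested genes, 105 were higher and 126 lower in *Robo1-/-* at an unadjusted p under 0.05 (limma). Of 36 symbols of the contractile apparatus, 31 were tested and 0 in each direction had an unadjusted p under 0.05. The median log2 fold change of this list was -0.15, which was -0.04 after GC correction. Its most abundant genes were *Actg1* and *Actb*, the cytoplasmic actins, and *Myh9*, a non-muscle myosin heavy chain. *Actg1* gave 41050 to 46705 in 4 libraries, 56278 in gh12 and 28924 in gh18, with r = 0.29 to the contractile profile, and *Actb* also had r = 0.29. A single gene of the list reached r of 0.8 to the profile, as did 0.825% of all tested genes. It was *Myl9*, the smooth muscle regulatory light chain (r = 0.93). *Myl9* gave 53.4, 22.0 and 36.6 in the *Robo1+/+* libraries, against 47.2, 28.4 and 21.9 in the *Robo1-/-* ones. Of 20 symbols for the control of contraction (calmodulins, phospholipase C, IP3 receptors, serum response factor and its partners), 16 entries were tested with 0 in each direction at an unadjusted p under 0.05 and a median log2 fold change of -0.08 (0.04 after GC correction), and none reached r of 0.8. *Myocd*, the smooth muscle and cardiac partner of serum response factor, was at 0 in 5 libraries and at 2.54 in gh03, which is 2 reads.

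The basal epithelial list had 20 tested entries, with a median log2 fold change of -0.41, which was -0.10 after GC correction. After adjustment 0 were called. At an unadjusted p under 0.05 (limma), 2 were lower and 0 higher in *Robo1-/-*, beside 126 and 105 of all 13692 tested genes. The 2 were *Krt15*, a basal keratin, at 318, 361 and 346 against 290, 182 and 120, and *Tcf7l1*, a transcription factor of the Wnt pathway, at 251, 122 and 189 against 134, 76.0 and 70.0. Their log2 fold changes were -0.88 and -1.002 (adjusted p = 0.86 for each, limma), and -0.49 and -0.21 after GC correction. Of its abundant entries, *Itga6* and *Dst*, an integrin chain and a cytoskeletal linker of basal epithelium, had r of -0.20 and -0.41 to the contractile profile. The median r of the 20 tested entries to the profile was 0.19, and 2 reached 0.8. These were *Col17a1*, the hemidesmosomal collagen, and *Sparc*, a matrix glycoprotein, with r of 0.89 and 0.93. After GC correction their r was 0.75 and 0.92, and the 2 entries at 0.8 were *Krt14* and *Sparc*.

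The basal keratins followed the contractile genes in part. *Krt14* gave 407, 84.7 and 296 in the *Robo1+/+* libraries, against 245, 74.2 and 68.6 in the *Robo1-/-* ones (r = 0.76 to the profile), *Krt17* 291, 99.5 and 220 against 184, 76.0 and 51.1 (r = 0.66), and *Krt5* 181, 111 and 133 against 123, 63.2 and 32.1 (r = 0.43). Together they came to 1.08, 0.323 and 0.703 reads per 100 reads of the luminal keratins *Krt8*, *Krt18* and *Krt19* in *Robo1+/+*, and 0.549, 0.223 and 0.597 in *Robo1-/-* libraries. After GC correction the log2 fold changes of *Krt14*, *Krt17* and *Krt5* went from -1.004, -1.04 and -1.12 to -0.41, -0.30 and -0.57, and their sum in gh18 went from 152 to 423, level with gh06 at 423. Their r to the GC-corrected profile was 0.80, 0.74 and 0.53. The summed contractile genes gave 1234, 444 and 691 against 998, 650 and 498. Library gh03 was highest on both sums, and gh15 had more keratin than gh06 but less contractile RNA. The lowest contractile sum was that of gh09, and the lowest keratin sum was that of gh18, or that of gh12, at 190, after GC correction.

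**Figure D4:**
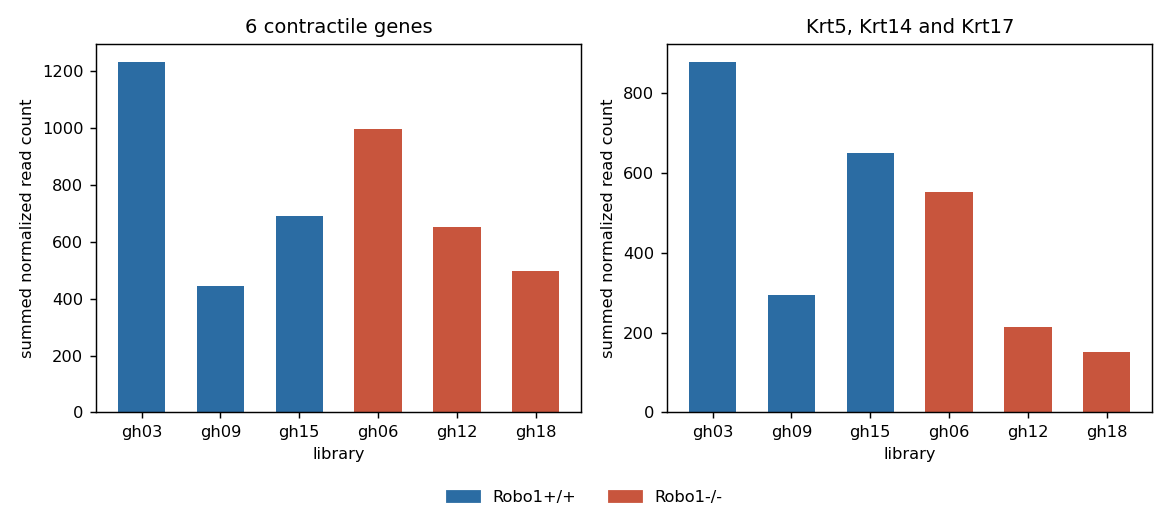
Summed normalized read count (y axes, from 0) of the 6 contractile genes (left) and of Krt5, Krt14 and Krt17 (right) in each library (x axes), blue for Robo1+/+ and red for Robo1-/-, without GC correction and with no error bars since each bar is 1 library. Both sums are highest in gh03 (1234 and 879), and gh12 and gh09 exchange their order between the panels.

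Of the 10 genes most like the contractile profile, 4 encode proteins of the extracellular matrix. Among 5626 tested genes outside the set with an SD of log2(value + 1) of at least 0.5, 13 (0.231%) had r of at least 0.9. The 10 highest were *Col5a2* (r = 0.99), *Col1a2* (0.97), 6530401D17Rik (0.96), AK218261 (0.96), *Cxcl14* (0.95), *Col3a1* (0.94), AK187054 (0.94), *Scd3* (0.93), AK217854 (0.93) and *Sparc* (0.93). Of these, *Col5a2* encodes a fibril-forming collagen chain and gave 30.5, 7.05 and 15.0 in the *Robo1+/+* libraries, against 28.8, 14.7 and 10.2 in the *Robo1-/-* ones. *Col1a2*, a chain of type I collagen, gave 75.1, 8.62 and 21.6 against 55.2, 15.6 and 16.1, and *Col3a1*, type III collagen, gave 176, 43.9 and 76.9 against 154, 64.1 and 46.7. As with *Myh11*, gh03 and gh06 were the highest libraries and gh09 the lowest for each of these 3 collagens. With GC correction r was 0.92 for *Col5a2*, 0.96 for *Col1a2*, 0.93 for *Col3a1* and 0.92 for *Sparc*. They were chosen for this r, which is therefore a description.

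Markers of other cells that express contractile or matrix genes were counted beside these results. Of the 12 pericyte and vascular muscle markers, 3 were tested (*Notch3*, *Mcam* and *Rgs5*), none with r of 0.8 to the profile, and the sum was 3889 to 4353 for the *Robo1+/+* libraries and 973 to 3860 for the *Robo1-/-* ones, most of it *Notch3*. *Rgs5*, a pericyte marker, gave 78.9, 28.2 and 64.7 against 34.5, 20.2 and 135.7, with r = 0.21 to the profile and 0.46 after GC correction. *Mcam* gave 250 to 466, with r = -0.46. Of the untested markers of this list, *Pdgfrb*, *Des* and *Kcnj8* stayed at or below 2.35 in every library. *Cspg4* reached 8.91 in gh03 and at most 2.81 elsewhere. *Abcc9* gave 3.82 to 7.33, *Cox4i2* gave 1.46 to 6.41 and *Rgs4* reached 5.5 in gh12. Of 10 fibroblast markers, 7 were tested and 2, the collagens *Col3a1* and *Col1a2*, had r of at least 0.8, beside 0.825% of all tested genes. With GC correction *Col1a1* joined them (r = 0.81, and 0.56 without the correction), at 26.7, 14.9 and 19.7 in the *Robo1+/+* libraries and 44.9, 15.6 and 2.92 in the *Robo1-/-* ones. The fibroblast sum ran from 822 to 904 and from 427 to 1297, led by *Dcn* at 389, 655 and 523 against 641, 88.9 and 582, and *Pdgfra* gave 55.4 to 132 with r = -0.23. The part of fibroblast RNA in the shared pattern was not tested.

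Of 10 endothelial markers, 3 were tested (*Vwf*, *Pecam1* and *Egfl7*), with sums of 649 to 2246 and 174 to 1157, most of each from *Vwf*. *Pecam1* gave 23.35 to 89.77 and *Egfl7* at most 34.49, while *Cdh5*, *Kdr*, *Tie1* and *Cldn5* stayed at or below 3.45. *Tek* reached 4.70 and *Esam* 9.41. Leukocyte sums were 120 to 161 and 96.3 to 124, with 2 of 10 markers tested (*Cd68* and *Csf1r*), and *Ptprc*, *Fcer1g* and *Tyrobp* at or below 1.46. *Cd79a* reached 3.45, *Itgam* 6.27 and *Lyz2* 8.91. Skeletal muscle sums were 67.4 to 80.7 and 37.9 to 84.0, with only *Mb* of 8 markers tested and *Myh4* and *Myh1* at or below 2.30. Of its other untested markers, *Tnni2* gave 1.83 to 18.03, *Mylpf* gave 1.46 to 10.97 and *Ckm* reached 8.06. Adipocyte sums were 19.1 to 42.3 and 32.1 to 46.7, with only *Pparg* of 8 tested. None of the tested markers of these 4 lists had r of 0.8 to the contractile profile. Since 0.825% of all tested genes reached it and few markers were tested, this says little about these cell types.

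**Figure D5:**
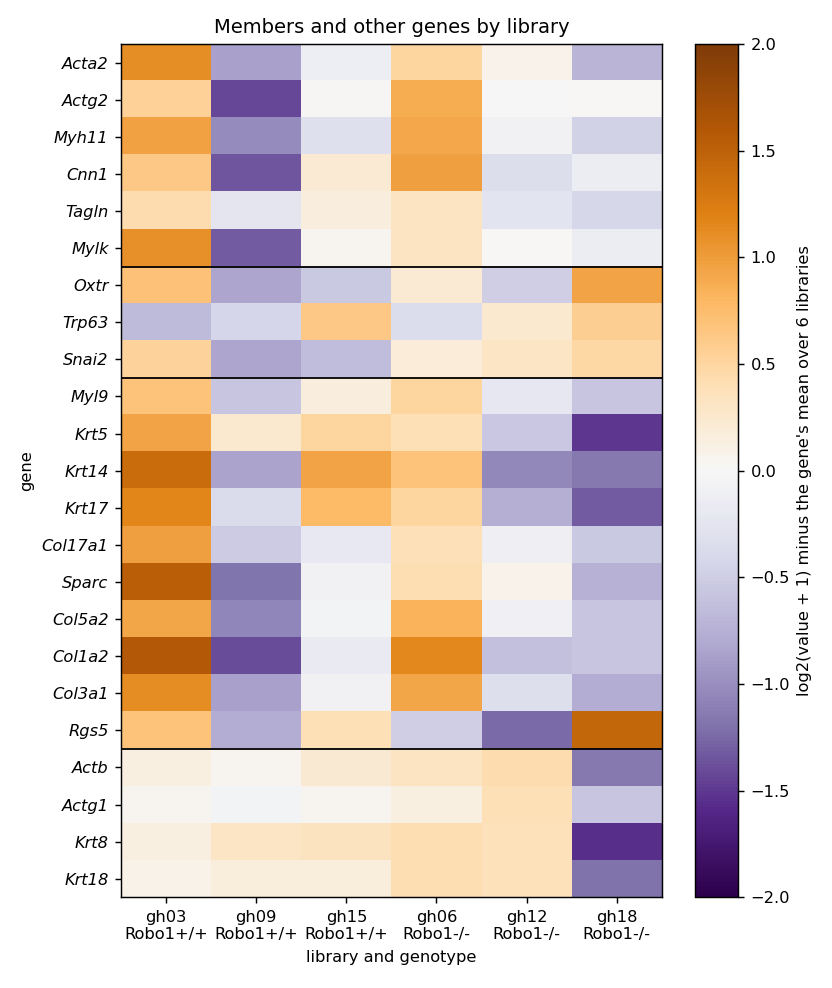
Log2(value + 1) minus the gene's mean over the 6 libraries (colour scale, orange above and purple below the mean) for the contractile genes (top block), Oxtr, Trp63 and Snai2 (next block), other basal, matrix and pericyte genes (block from Myl9 to Rgs5) and cytoplasmic actins and luminal keratins (bottom block), by library (x axis). The top block and the collagens are orange in gh03 and gh06 and purple in gh09, and the bottom block is purple in gh18.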

How the data were processed

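Poly(A)+ RNA libraries of sorted luminal progenitors, 3 of each genotype, were grouped by genotype as labelled. What the authors deposited is normalized signal, the reads of each known-gene cluster divided by a size factor for each library. The reads, trimmed to 75 bases, were mapped to mm9 with TopHat and normalized by the DESeq method; the counting tool and its use of strand are not given in the sources used here. Whole reads were recovered from the step of 1 read, 0.784 to 1.46 in value, and at least 99.98% of the values of each library were whole within a tolerance of 0.0051. Because reads were not tagged by molecule, counting intervals (95% Poisson) cover counting error only.

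The members and gene lists were chosen with earlier results of these data known. The test was limma (version 3.58.1, R 4.3.3) on log2(value + 1) with a trended prior and Benjamini-Hochberg adjustment over 13692 genes, those that filterByExpr (edgeR, version 4.0.16) kept from their recovered reads. A fold change on this scale understates that of low genes. On the recovered reads edgeR's quasi-likelihood test called 0 genes at an adjusted p under 0.05 and DESeq2 (version 1.42.0) 1. Exact two-sided permutation tests were used for single genes and for correlations. The GC correction subtracted a lowess curve (span 0.3) of each gene's deviation on transcript GC. Gene positions and lengths are from GENCODE M1 (NCBIM37, the mm9 build), in which no stretch of 75 bases of these 9 genes was shared with another gene's coding transcript. The rule for names took the 9 members, *Robo1*, the sort genes, the 3 most abundant of each list, those past an unadjusted p of 0.05 and a log2 fold change of 1, and the 10 genes most like the contractile profile; other genes were named after their values were seen. A gene that the rule would name is not reported here. The scripts were tested on simulated data.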

Additional observations from a re-analysis of the deposited data

How the results depend on the processing

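No member was called, and none had an unadjusted p under 0.05, under any of the 16 alternatives, which were another scaling (TMM or total reads), pseudocounts of 0.5 and 5, all genes with at least 1 read, at least 10 reads in every library, GC correction, edgeR, DESeq2, each library left out in turn and, added after seeing the data, GC correction with gh18 left out. The smallest adjusted p of a member was 0.57. Of 126 single-gene values, 115 kept their direction and 11 turned. *Acta2* turned to 0.22 with GC correction and gh18 left out, and *Mylk* to -0.16 with DESeq2 and -0.17 with edgeR; the cause was not tested. With each library left out, the log2 fold change ran from -0.54 to 0.44 for *Acta2*, from -0.20 to 0.79 for *Myh11*, from -0.26 to 0.74 for *Cnn1* and from -0.50 to 0.71 for *Mylk*, and the values that turned were 0.44 and 0.24 for *Acta2* (without gh03 and gh18), -0.20 and -0.15 for *Myh11*, -0.26 and -0.07 for *Cnn1*, and -0.50 and -0.0018 for *Mylk* (each without gh09 and gh06). The median log2 fold change of the members ran from -0.23 without gh09 to 0.72 without gh03. The median r of the contractile pairs ran from 0.82 to 0.89 with each library left out. Without gh18, 579 genes in all had an unadjusted p under 0.05, and 879 without gh06, against 231 with all libraries, and with no member among them.

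No paired analysis was possible because the libraries of the 2 genotypes share no replicate number in the labels, which also tie no library to a litter. Depth limits *Snai2* (29 reads in all), *Actg2* (4 to 17 per library) and *Cnn1* (8 to 31).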
